A study of Homo sapiens with 12 samples.

Results

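Of 60666 genes counted by RNA-seq, 50 were expressed in HT1376 CT and nearly silent in HT1376 FOXP3 KO. The members were chosen by their measured values: at least 3 CPM (a gene's count divided by the library's total count, times 1000000) in each of the 6 control libraries, and under 0.3 CPM in each of the 6 knockout libraries. Genes without a symbol and genes of several large families (names starting with LINC, HOX, COL, FOX, KRT, CDH, PCDH, SEMA, ADAM, MMP, TRIM, ITG, EPH and CEACAM) were left out. The values alone were met by 55 genes, of which 2 had no symbol and 3, COL19A1, LINC01049 and LINC00900, had such a name. Since the rule used the levels in both lines, the gap between HT1376 CT and HT1376 FOXP3 KO in these genes is given below as a description, with no test.

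HT1376 is a human bladder cancer cell line. HT1376 FOXP3 KO is 1 single-cell clone in which the gene for the transcription factor FOXP3 was disrupted by CRISPR/Cas9 with guides to its exon 2, and HT1376 CT, labelled wild type, is 1 single-cell clone that received Cas9 with a control guide against luciferase. Each line was sequenced untreated and after 100 ng/mL IFNγ for 48 h, which gave 4 groups of 3 libraries, numbered 11, 12 and 13. With 1 clone per line, the loss of FOXP3 and any other difference between the clones cannot be told apart.

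The libraries held 4490684 to 39270042 counts, with the fewest in HT1376 CT + IFNγ replicate 12. FOXP3 itself was at 0 to 3 counts in each of the 12 libraries, in both lines, so its RNA could not check the labels. It was thus under 0.3 CPM in HT1376 CT as well, with 0 counts in the deepest library, HT1376 CT replicate 13. By flow cytometry, a measure of protein, the authors describe a high basal level of FOXP3 in HT1376. The reason for this difference was not tested. Epithelial markers (KRT8, KRT18, CDH1 and others) summed to 3686 to 4457 CPM in HT1376 CT and 3976 to 5129 CPM in HT1376 FOXP3 KO, and urothelial markers (UPK1B, GATA3, TP63 and others) to 554.3 to 838.9 CPM and 670.9 to 739.7 CPM, with UPK3A at 0 in each library. These sums hide changes of single genes between the untreated lines. Of 6 epithelial markers, KRT7 was higher in HT1376 FOXP3 KO (629 to 1292 CPM), and EPCAM (83.2 to 23.3 CPM) and CDH1 (371 to 252 CPM) were lower. Of 6 urothelial markers tested, PPARG (19.6 to 56.8 CPM) and TP63 were higher, and GATA3 (161 to 107 CPM) and UPK1B were lower. T cell markers summed to 0.571 to 1.56 CPM in HT1376 CT and to at most 0.0978 CPM in HT1376 FOXP3 KO, with CD2 at 0 throughout. Most of that sum was CD3E, with 84 counts over the 6 HT1376 CT libraries, against 6 for CD3D and 1 for CD8A. CD3E was lower in untreated HT1376 FOXP3 KO (log2 fold change -4.10, edgeR adjusted p = 0.0052). Leukocyte markers summed to 0.891 to 1.98 CPM and 0.663 to 2.56 CPM, and endothelial markers to 1.07 to 2.16 CPM and 0.286 to 1.93 CPM. Fibroblast markers were higher in HT1376 FOXP3 KO, at 457 to 714 CPM against 23.6 to 60.9 CPM, with COL1A2, DCN and LUM making up most of that sum. Of the 5 genes of that list, 4 were higher in untreated HT1376 FOXP3 KO and 1, COL1A1, was lower, at a mean of 28.1 CPM in HT1376 CT and 8.18 CPM in HT1376 FOXP3 KO. Their part in the differences between the lines was not tested.

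FOXP3 belongs to the forkhead family of DNA-binding proteins and is best known as the factor that defines regulatory T cells, where it both activates and represses genes. IFNγ is a cytokine of T and NK cells. It acts through JAK kinases and transcription factors of the STAT family, which bind sites of the form TTCNNNGAA. A gene that is on in 1 clone of a line and off in another can be described by how strongly it is on, how completely it is off, what lies beside it in the genome, and how it responds to a stimulus in the clone where it is active.

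The 50 genes made up 0.448% of the 11163 genes at 3 CPM or more in each HT1376 CT library. They were 40 protein-coding genes and 10 long non-coding RNAs. The non-coding share was 20%, against 5.76% among the 11163 genes. The names that the rule leaves out, LINC among them, were kept in the 11163 genes, so the sets are not fully alike. Per kilobase of exon, their median level was 2.25 CPM, against 6.76 CPM among the 11163 genes, and 42 of the 50 lay below that median. In the opposite direction, 36 genes met the same limits with the lines exchanged.

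In each HT1376 CT library the counts of the 50 genes added up to 700.2 to 836.9 CPM, and in each HT1376 FOXP3 KO library to 2.43 to 4.66 CPM. The plot of each member by library shows a gap between the lines in each gene, which the rule sets.

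**Figure D1:**
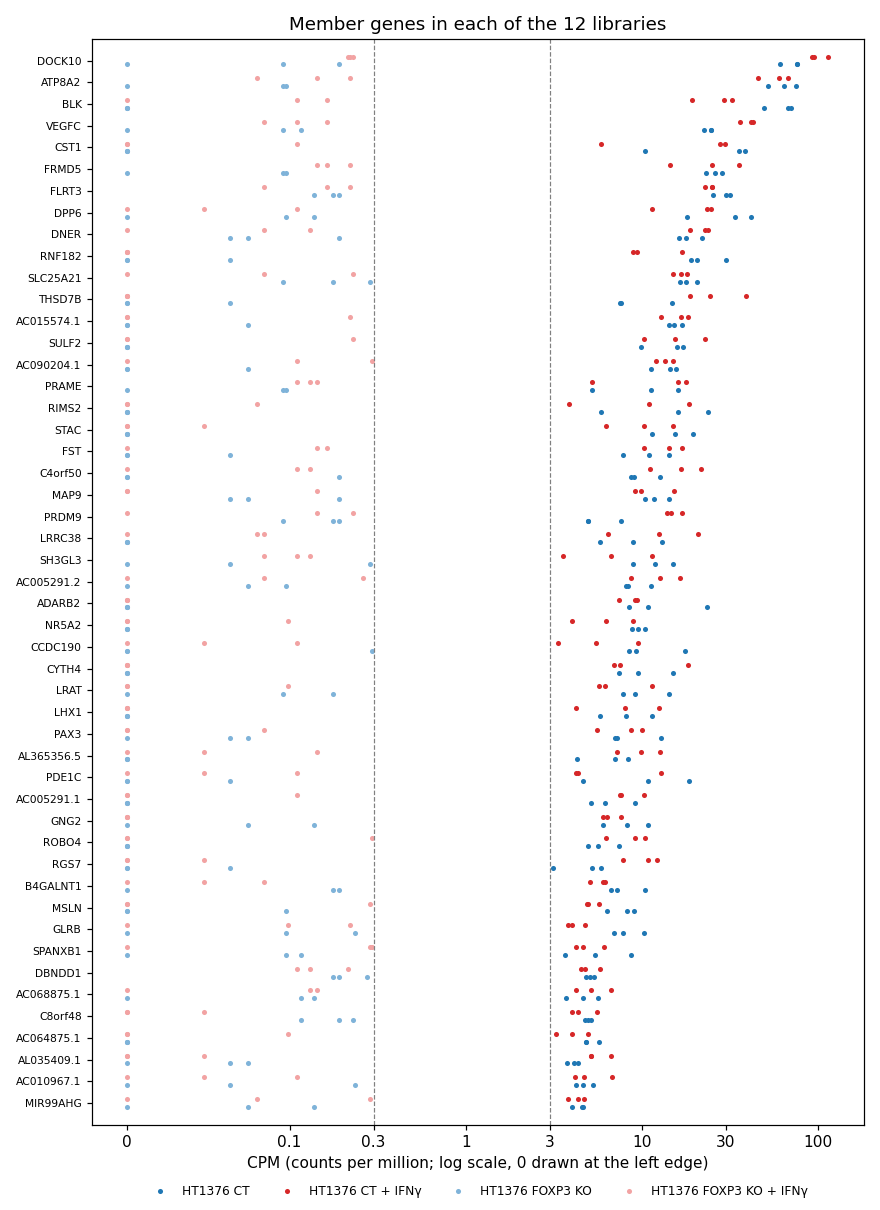
CPM of 49 of the 50 member genes (rows, ordered by their median over the 6 HT1376 CT libraries) on a log scale, with 1 point per library and a value of 0 drawn at the left edge. The dashed lines are the limits of 0.3 and 3 CPM that chose the genes, so the empty space between them is part of the rule, and points of HT1376 CT + IFNγ lie clear of the untreated HT1376 CT points for few genes.

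Silence in the knockout line was near the counting floor. ADARB2, CYTH4 and LHX1 had no count in any of the 6 HT1376 FOXP3 KO libraries, 18 members had at most 3 counts over the 6 libraries together, and 16 had 10 or more. The most was 19 counts, for DBNDD1, and the highest count in a single library was 9. In HT1376 CT the lowest count of a member in any library was 15. A limit of 0.3 CPM corresponded to 2.72 to 9.20 counts in the HT1376 FOXP3 KO libraries, and 3 counts over the 6 libraries together to 0.0291 CPM. HT1376 FOXP3 KO + IFNγ replicate 13, the deepest of the 6, held 143 of the residual counts and had 12 members at 0, while the other 5 libraries held 25 to 53 counts and had 24 to 31 members at 0.

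The genes closest to the limits were as follows. RGS7 and AC064875.1 were just inside the lower limit, with 3.15 and 3.24 CPM in their lowest HT1376 CT library, and OR2W3 and AL355607.2 were just outside it, with 2.895 and 2.703 CPM. SPANXB1 and ROBO4 were just inside the upper limit, both at 0.293 CPM in their highest HT1376 FOXP3 KO library, and EFNA5 and GRIK2 were just outside it, with 0.320 and 0.331 CPM. SHISA2, an inhibitor of Wnt and FGF receptor maturation that was given as a marker of this pattern, also fell just outside. It stood at 128, 142 and 114 CPM in the HT1376 CT libraries and at 174, 167 and 151 CPM in HT1376 CT + IFNγ. HT1376 FOXP3 KO held 2, 0 and 0 counts of it and HT1376 FOXP3 KO + IFNγ held 0, 5 and 4, and the 5 counts of replicate 12 amounted to 0.552 CPM. SHISA2 was therefore not counted among the 50.

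By role, 7 members encode signalling proteins and regulators of GTPases. DOCK10 is an exchange factor of the DOCK family that activates the GTPase CDC42. It was at 60.4, 75.8 and 75.8 CPM in HT1376 CT and at 92.4, 94.2 and 114 CPM in HT1376 CT + IFNγ, with 2, 2 and 0 counts in HT1376 FOXP3 KO and 3, 2 and 7 counts in HT1376 FOXP3 KO + IFNγ. All HT1376 CT libraries with IFNγ were above all of those without. The mean over the 6 HT1376 CT libraries was 551-fold the pooled knockout level (95% exact Poisson interval of the knockout counts, 340 to 965). Such intervals and floors cover counting error only.

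BLK, a kinase of the SRC family known from B cells, was at 67.5, 70.6 and 49.3 CPM in HT1376 CT and at 29.4, 32.5 and 19.3 CPM with IFNγ. It had no count in the untreated HT1376 FOXP3 KO libraries and 0, 1 and 5 counts with IFNγ. The leukocyte marker PTPRC had 63 counts over all 6 HT1376 CT libraries.

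CYTH4, a cytohesin that activates ARF GTPases, was at 9.54, 15.0 and 7.44 CPM in HT1376 CT and 6.94, 18.3 and 7.55 CPM with IFNγ. With no count in the knockout line, its mean HT1376 CT level was at least 371-fold higher, taking 3 counts over the 6 libraries as the floor. RGS7 and GNG2 belong to G protein signalling, as a deactivator of Gα subunits and as a Gγ subunit, PDE1C is a calmodulin-dependent phosphodiesterase, and STAC is an adaptor of calcium channels. These 4 had medians of 6.83 to 13.1 CPM over the HT1376 CT libraries and 1 to 4 counts in all of HT1376 FOXP3 KO.

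Secreted and extracellular proteins accounted for 6 members, with 1 to 11 knockout counts each. VEGFC, the main growth factor of lymphatic vessels, was at 24.8, 22.4 and 24.7 CPM in HT1376 CT and at 36.1, 42.5 and 41.7 CPM with IFNγ. The untreated libraries of VEGFC were within 1.11-fold of each other, and the groups did not overlap. CST1, a secreted inhibitor of cysteine proteases, had the highest level per kilobase of exon among the members, at a median of 33.5 CPM. It was at 10.4, 38.6 and 35.8 CPM in HT1376 CT and at 5.86, 27.8 and 29.8 CPM with IFNγ, so replicate 11 was the lowest library in both groups. CST1 has close copies beside it, and the handling of reads that match several genes is not given in the sources used here.

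THSD7B, a protein with thrombospondin type 1 repeats, was at 14.8, 7.48 and 7.56 CPM untreated and at 38.8, 18.7 and 24.4 CPM with IFNγ. FST, an activin antagonist, and SULF2, which removes sulfate groups from heparan sulfate, had medians of 12.6 and 15.6 CPM, and their IFNγ and untreated libraries overlapped.

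Surface adhesion proteins and receptors accounted for 4 members. FLRT3, a leucine-rich repeat protein that binds UNC5 receptors and FGF receptors, was at 29.99, 25.4 and 31.5 CPM in HT1376 CT and at 25.1, 22.7 and 25.0 CPM with IFNγ. DNER, a Notch ligand of neurons, was at 16.3, 21.96 and 17.9 CPM untreated and 18.7, 22.7 and 23.8 CPM with IFNγ. ROBO4, a roundabout receptor known from endothelium, was at 4.97, 5.67 and 7.44 CPM untreated and 6.22, 9.13 and 10.4 CPM with IFNγ, beside 62 counts of the endothelial marker PECAM1 over the 6 libraries. All 9 knockout counts of ROBO4 came from HT1376 FOXP3 KO + IFNγ replicate 13. MSLN, the surface glycoprotein mesothelin, had a median of 6.05 CPM.

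Channel subunits, transporters and vesicle proteins accounted for 7 members. ATP8A2, a flippase that moves phospholipids to the inner face of the membrane, was at 75.1, 64.5 and 51.9 CPM in HT1376 CT and at 67.8, 45.9 and 60.3 CPM with IFNγ. It had 9 counts in the knockout line and a fold of 698 (interval 368 to 1530). DPP6, an accessory subunit of Kv4 potassium channels, was at 17.9, 41.9 and 33.6 CPM untreated and 11.4, 23.4 and 24.8 CPM with IFNγ, with replicate 11 the lowest in both groups. SLC25A21, a mitochondrial carrier of dicarboxylates, was at 20.5, 16.5 and 17.8 CPM untreated and 16.6, 14.9 and 18.0 CPM with IFNγ. LRRC38, a partner of BK potassium channels, GLRB, the β subunit of the glycine receptor, RIMS2, a protein of the presynaptic active zone, and SH3GL3, an endophilin, had medians of 5.83 to 13.5 CPM.

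Transcription factors were LHX1, PAX3 and NR5A2, all with at most 3 knockout counts. LHX1, a LIM-homeodomain factor of kidney and head development, was at 11.4, 8.11 and 5.81 CPM in HT1376 CT and 12.5, 4.23 and 7.97 CPM with IFNγ, and was at least 287-fold higher than the knockout floor. PAX3, a factor of neural crest and muscle precursors, was at 12.9, 7.24 and 7.03 CPM untreated and 10, 5.57 and 8.65 CPM with IFNγ. NR5A2, a nuclear receptor of liver and pancreas, was at 8.80, 9.45 and 10.4 CPM untreated and 6.22, 4.01 and 8.86 CPM with IFNγ. In each of the 3 the libraries with and without IFNγ overlapped.

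Genes of the germline were PRAME, PRDM9 and SPANXB1. PRAME, a cancer-testis antigen, was at 5.20, 16.0 and 11.3 CPM in HT1376 CT and 5.23, 17.8 and 15.9 CPM with IFNγ, with replicate 11 again the lowest in both groups. PRDM9, the histone methyltransferase that places meiotic recombination, was at 4.91, 7.63 and 4.94 CPM untreated and 13.9, 16.9 and 14.5 CPM with IFNγ, and the groups were well apart. SPANXB1, which has near-identical copies on chromosome X, ranged from 3.67 to 8.68 CPM over the 6 libraries, and its value is uncertain for that reason.

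The remaining coding members were 4 enzymes or enzyme-like proteins, 2 cytoskeletal proteins and 4 others. RNF182, a ubiquitin ligase, was at 19.1, 20.5 and 30.2 CPM in HT1376 CT and at 8.92, 9.35 and 16.9 CPM with IFNγ, with 1 count in the knockout line. ADARB2, an RNA-binding relative of the RNA editing enzymes, was at 8.40, 23.4 and 10.8 CPM untreated and 7.39, 9.13 and 9.38 CPM with IFNγ, at least 392-fold above the knockout floor. LRAT esterifies retinol and B4GALNT1 makes the gangliosides GM2 and GD2, and their medians were 8.45 and 6.41 CPM. FRMD5, a FERM domain protein, was at 23.0, 26.1 and 28.4 CPM untreated and 25.1, 14.5 and 35.6 CPM with IFNγ, and MAP9, a protein of spindle microtubules, had a median of 11.1 CPM. C4orf50, CCDC190, DBNDD1 and C8orf48 had medians of 4.83 to 11.9 CPM.

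The 10 long non-coding RNAs had medians of 4.45 to 16.0 CPM over the HT1376 CT libraries and 1 to 11 knockout counts. AC015574.1 was at 14.3, 16.9 and 15.3 CPM in HT1376 CT and 12.9, 16.7 and 18.3 CPM with IFNγ, and AC090204.1 at 14.5, 15.7 and 11.3 CPM and 12.1, 13.6 and 15.1 CPM. AC005291.2 and AC005291.1, which follow each other on the same strand of chromosome 17 with no tested gene between them, stood at a median of 9.94 and 7.52 CPM. Per kilobase of exon, the lowest member was MIR99AHG, the host transcript of a microRNA cluster, at 0.0756 CPM over its many annotated exons.

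Members differed in how steady they were among libraries of the same group. Of the 50, 11 spanned more than 2-fold between the lowest and the highest untreated HT1376 CT library, which is 22% against 3.20% of the 11163 expressed genes. They included CST1, DPP6, PRAME, RIMS2, LRRC38, ADARB2, CCDC190, CYTH4, PDE1C and SPANXB1. The 50 members were lower in level, at a median of 10 CPM in HT1376 CT against 36 CPM for the expressed genes. Counting error widens such a span at lower counts, and the shares were not compared at equal level. RIMS2 had the widest span, at 5.83, 16.1 and 23.7 CPM in HT1376 CT and 3.87, 10.9 and 18.6 CPM with IFNγ. Replicate 11 was the lowest library both untreated and with IFNγ in 16 members, or 32.0% against 16.3% of the expressed genes, and the highest in both in 11 members, or 22% against 18.6%. At the other end, DBNDD1, C8orf48 and VEGFC spanned at most 1.11-fold.

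**Figure D2:**
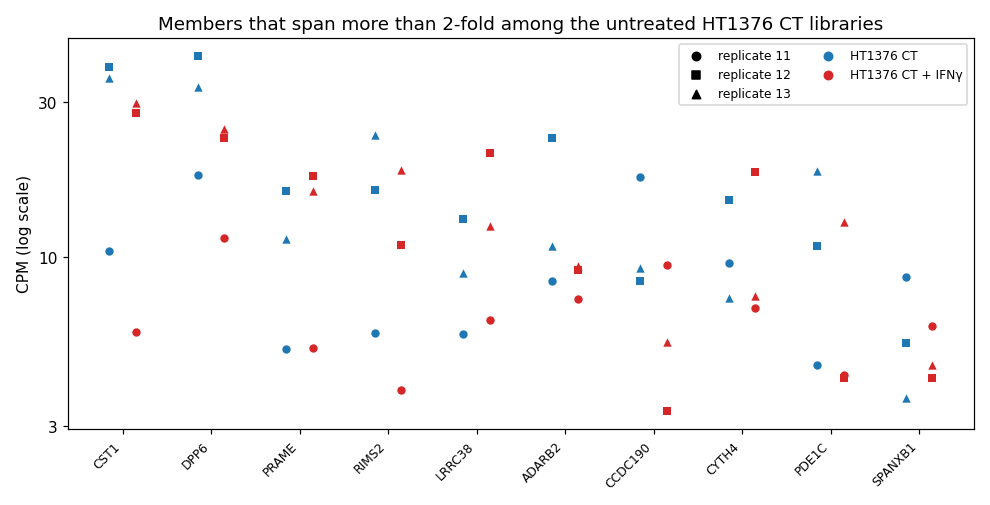
CPM (log scale) of 10 of the 11 members that spanned more than 2-fold among the untreated HT1376 CT libraries, with 1 symbol shape per replicate number and 1 colour per group. In CST1, DPP6, PRAME, RIMS2 and LRRC38 replicate 11 (circle) is the lowest in both groups, while in CCDC190 and SPANXB1 it is the highest.

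The response to IFNγ was measured in HT1376 CT, where the members are active. The difference between these groups was not part of the rule, but the levels in both groups were. Each HT1376 CT library, with or without IFNγ, had to reach the lower limit. A gene that IFNγ took below that limit, or raised from below it, could therefore not be a member. Nor could a gene that IFNγ raised above the upper limit in HT1376 FOXP3 KO. The 11163 expressed genes met the same lower limit, but all tested genes did not have to. With edgeR's quasi-likelihood test and Benjamini-Hochberg adjustment over all tested genes, 5 of 50 members rose (10%) and 1 fell (2%) at an adjusted p under 0.05. Over all 24416 tested genes 3.53% rose and 1.82% fell, and among the 11163 expressed genes 4.94% rose and 3.62% fell. The median log2 fold change of the members was -0.02, against -0.02 over all genes and -0.05 over expressed genes. In this unpaired fit the 6 called members went in both directions, and the paired fit given below called more.

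THSD7B had the largest increase, by a log2 fold change of 1.55 ± 0.31 (SE, edgeR adjusted p = 0.012). PRDM9 rose by 1.46 ± 0.22 (edgeR adjusted p = 0.002), RGS7 by 1.20 ± 0.28 (edgeR adjusted p = 0.0275), VEGFC by 0.81 ± 0.13 (edgeR adjusted p = 0.00309) and DOCK10 by 0.58 ± 0.13 (edgeR adjusted p = 0.0265). BLK fell by 1.15 ± 0.20 on the log2 scale (edgeR adjusted p = 0.00495). Each of the 6 moved the same way in 3 of 3 pairs of libraries with the same number. VEGFC, PRDM9 and BLK stayed past the threshold with any 1 library left out. DOCK10 did not without HT1376 CT replicate 11, HT1376 CT replicate 13 or HT1376 CT + IFNγ replicate 13 (highest edgeR adjusted p = 0.128), nor in a fit of all 12 libraries (edgeR adjusted p = 0.0632). THSD7B did not without HT1376 CT replicate 13 (edgeR adjusted p = 0.0700), and RGS7 was called in only 2 of the 6 fits that left out 1 library.

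**Figure D3:**
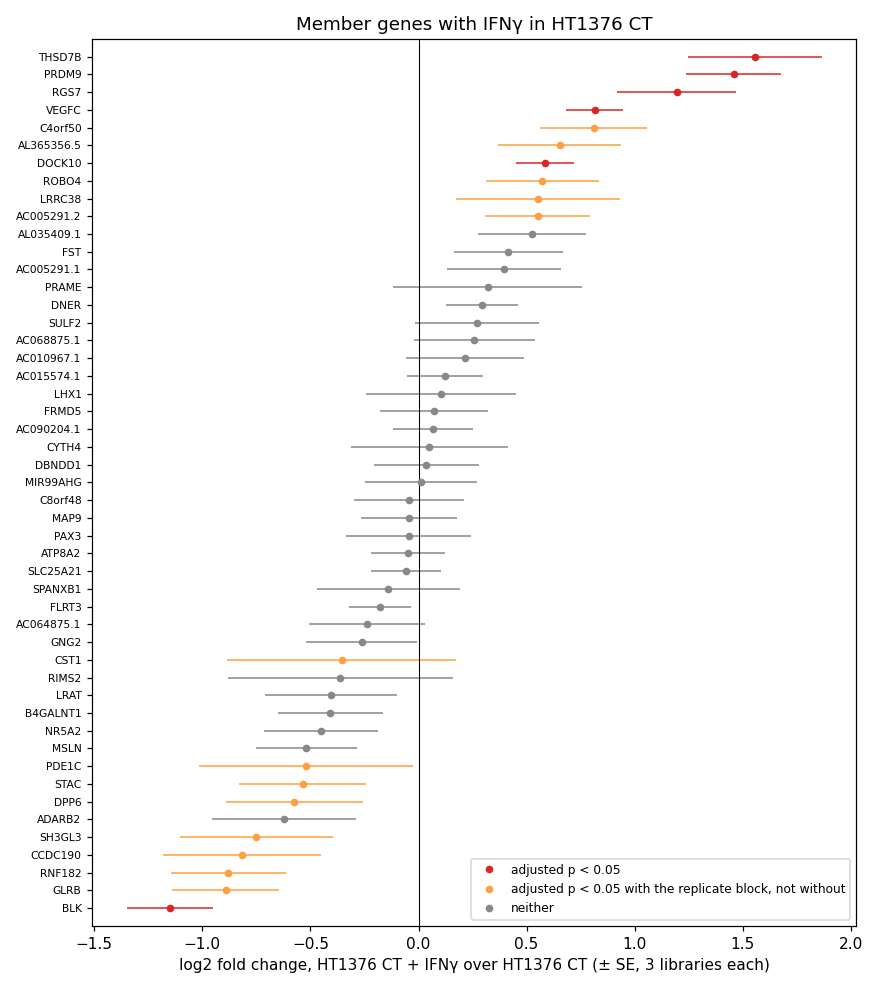
log2 fold change of HT1376 CT + IFNγ over HT1376 CT for 49 of the 50 members, with a standard error derived from edgeR's F statistic (3 libraries per group). THSD7B, PRDM9, RGS7, VEGFC and DOCK10 lie to the right and BLK to the left as called members, and members in orange are called in the fit with the replicate block but not in the fit without it.

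Libraries of HT1376 CT with the same number deviated together, so a paired fit, blocked on that number, stands beside these counts. With the replicate block, 10 of 50 members rose (20%) and 10 fell (20%), against 8.67% and 9.88% over all tested genes and 13.6% and 19.2% over the expressed genes, so the share that fell was near that of expressed genes. ROBO4, LRRC38, C4orf50, AL365356.5 and AC005291.2 were added to those that rose, and those added to the ones that fell included GLRB, DPP6, SH3GL3, STAC, PDE1C, CST1, RNF182 and CCDC190. For DPP6 the edgeR adjusted p went from 0.393 without the block to 0.000230 with it, and each of its IFNγ libraries was below the untreated library of the same number.

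Compared without a model, the 3 IFNγ libraries lay above all untreated ones for 6 members (12.0%) and below all of them for 6 (12.0%), against 9.88% and 26.9% of the expressed genes. Those above were DOCK10, VEGFC, THSD7B, PRDM9, RGS7 and AL035409.1, and those below were BLK, FLRT3, RNF182, B4GALNT1, MSLN and GLRB.

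In HT1376 FOXP3 KO, 16 members had the 10 counts needed for a test of IFNγ, and edgeR called none of them. The rule kept only genes under 0.3 CPM in the HT1376 FOXP3 KO + IFNγ libraries, so a gene that IFNγ raised above that level there could not be a member, and the absence of calls is in large part set by the rule. Their lowest edgeR adjusted p was 0.914, 1 had an unadjusted p under 0.05, and with the replicate block the call count was also 0, with an edgeR adjusted p of 0.624 at the lowest. Over the 24131 genes tested in that line, 0.978% rose and 0.00414% fell. The counts also limit what could be detected: DOCK10, among the members with the most reads there, had 2, 2 and 0 counts untreated and 3, 2 and 7 with IFNγ.

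The members lay on 20 chromosomes. Most stood alone, and 12 formed 5 clusters with gaps of at most 5 Mb: ADARB2 with AL365356.5 (annotated as LASTR in the newer release), AC005291.2 with AC005291.1, PAX3 with DOCK10 and DNER, LRAT with MAP9 and GLRB, and BLK with C8orf48. How often other expressed genes would fall this close together was not compared. DOCK10 spans chr2:224765090-225042468 on the minus strand (GRCh38). In the stretch of 7.51 Mb from PAX3 to DNER, 26 other genes were tested between untreated HT1376 FOXP3 KO and HT1376 CT, of which 7 were higher and 7 lower, and each of the 12 that were expressed in HT1376 CT kept at least 1 CPM in all knockout libraries. So did 5 of 5 expressed genes from ADARB2 to AL365356.5 and 5 of 5 around BLK and C8orf48, but not the 1 expressed gene from LRAT to GLRB. In the 2.55 Mb from LRAT to GLRB, 6 others were tested, with 2 higher and 3 lower, and in the 2.08 Mb around BLK and C8orf48, 17 were tested, with none higher and 5 lower. Of the 20 others from ADARB2 to AL365356.5, none were higher and 10 were lower.

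To see whether the silence was shared by the surroundings, the nearest gene that started on each side of a member, was not a member itself and had at least 10 counts in the 6 libraries was compared between untreated HT1376 FOXP3 KO and HT1376 CT. Other members were passed over in this choice, as between AC005291.2 and AC005291.1. By edgeR, 51 of the 98 neighbours were lower in the knockout line (52.0%) and 5 were higher (5.10%), against 18.2% and 14.0% of all 25320 genes tested, and their median log2 fold change was -2.74 against -0.02. Under IFNγ 75 could be tested, of which 44 were lower (58.7%) and 7 higher (9.33%), against 15.7% and 13.2% of all genes. Of the neighbours, 22 overlapped the member itself, 8 of them on the other strand, and since the strand setting of the counting is not given in the sources used here, reads of both genes cannot be told apart. Without the overlapping genes, 38 of 76 neighbours were lower. Without the minimum count, the nearest genes were partly others, and 37 of 99 were lower (37.4%) and 3 higher, against 14.0% and 10.4% of 35480 genes.

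Among the 35 neighbours that were expressed at 3 CPM or more in each HT1376 CT library, 23 were lower (65.7%) and 3 higher (8.57%), against 28.6% and 16.2% of the 11163 expressed genes. Genes that met the limits of the members had been passed over, and of the 35 neighbours 27 kept at least 1 CPM in all 6 knockout libraries. RAC2, a Rac GTPase of blood cells that lies 22433 bases from CYTH4, went from a mean of 94.4 CPM in HT1376 CT to 0.964 CPM in HT1376 FOXP3 KO (log2 fold change -6.63, edgeR adjusted p = 2.38e-07). RGS4, a G protein regulator beside CCDC190, went from 355.0 to 12.2 CPM (log2 fold change -5.01). TRIB2, a pseudokinase beside AC064875.1, went from 45.7 to 2.17 CPM, and ROBO3, a roundabout receptor beside ROBO4, from 7.15 to 0.0458 CPM.

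Some members had a neighbour on 1 side with no called difference in the untreated libraries. PIGK, an enzyme of GPI anchor transfer beside AL035409.1, was at 47.1 and 60.0 CPM in HT1376 CT and HT1376 FOXP3 KO, although under IFNγ it was called higher in HT1376 FOXP3 KO (log2 fold change 0.62, edgeR adjusted p = 0.00409). The neighbour on the other side of AL035409.1, ENSG00000288543, was lower, at 2.18 and 0.0318 CPM (log2 fold change -6.43, edgeR adjusted p = 0.000118). USP25, a deubiquitinase beside MIR99AHG, was at 62.8 and 70.8 CPM and was called in neither condition. The neighbours of DOCK10 were low themselves: the pseudogene AC073052.1 was at 1.08 and 1.77 CPM, and MIR4439, inside DOCK10, at 0.173 CPM and at 0. SHISA2 lies 18746 bases beyond the end of ATP8A2 on chromosome 13, and with NUP58 on the near side of ATP8A2 (190.5 and 123.8 CPM, log2 fold change -0.71, edgeR adjusted p = 0.000526) and RNF6 on the far side of SHISA2 (111.9 and 85.6 CPM, log2 fold change -0.47, edgeR adjusted p = 0.00973) the pair was flanked by coding genes that stayed on.

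**Figure D4:**
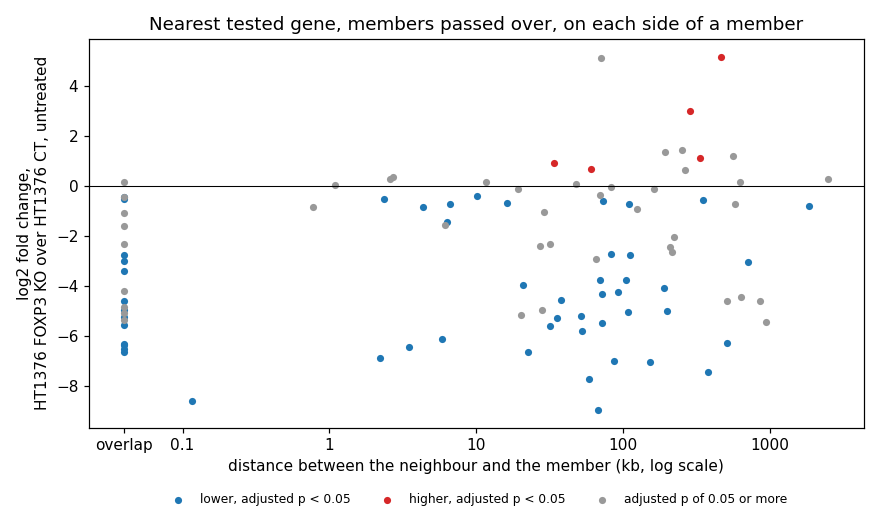
log2 fold change of untreated HT1376 FOXP3 KO over HT1376 CT for the 98 neighbours of the members, against their distance from the member in kb (log scale, overlapping genes at the left). Of the points, 51 are lower and 5 higher at an edgeR adjusted p under 0.05, and lower genes occur at short and long distances.

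Promoter sequences from RefSeq (GRCh38.p14, 250 bases before to 50 after a transcript start) were found for 31 members, with 66 promoters. Their median GC content was 56.2% against 64.7% for expressed genes, and 51.5% of them had an observed over expected CpG ratio of at least 0.6, against 78.1% of promoters of expressed genes and 48.9% of all promoters. The forkhead core TAAACA was searched on both strands, together with the longer TGTTTAC that contains its reverse complement, and so was the STAT form TTCNNNGAA, whose reverse complement has the same form. TAAACA occurred in 7 of the 66 promoters (10.6%, against 7.60% of promoters of expressed genes and 12.3% of all), TGTTTAC in 5 (7.58%, against 2.64% and 3.42%) and TTCNNNGAA in 5 (7.58%, against 6.20% and 7.66%). A match of letters is a description and not a binding site. The stretches below are shown because they hold the motif of the deleted factor's family or of the IFNγ pathway in a member's promoter. They run 5′ to 3′ on the strand of the gene, with the motif in capitals.
NR5A2, chr1:200042475-200042504, plus strand: tttcctttttggTAAACAaatcagaggaaa
RNF182, chr6:13924260-13924289, plus strand: aagtgtatccagTGTTTAcatcagagataa
SULF2, chr20:47786836-47786865, minus strand: ataagttactgcTGTTTAcaagtgctttcc
PRAME, chr22:22554297-22554326, minus strand: cgcaggccacagTAAACAaagtcaggccgc
PRAME, chr22:22554330-22554359, minus strand: gaaaacatccTTCAACGAAttacagcctcc
MAP9, chr4:155377152-155377181, minus strand: cgtacttcgaTTCAGAGAActtcacgtcct
GNG2, chr14:51847060-51847089, plus strand: gctgtgtcccTTCCTGGAAgcctacagaat

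Of the members called with IFNγ in the unpaired fit, DOCK10, VEGFC, THSD7B, PRDM9 and RGS7 had promoters in the table, and none of them held TAAACA or TTCNNNGAA. Of the members added by the replicate block, RNF182, which fell (edgeR adjusted p = 1.24e-08 with the block and 0.0905 without it), held TAAACA. The others added that had promoters held neither motif. A link between these motifs and the IFNγ response was not tested. PRAME, MAP9, GNG2 and MIR99AHG, which did hold TTCNNNGAA, had IFNγ log2 fold changes in HT1376 CT of 0.32 ± 0.44, -0.04 ± 0.22, -0.26 ± 0.26 and 0.01 ± 0.26, none of them called.

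Related genes were examined in 8 lists, of which 4 hold a member. The lists are families and pathways of SHISA2, DOCK10 and other genes that earlier results of these data placed low in the knockout line. The share of lower genes in them is therefore partly set by that choice and is given as a description. In the lists with a member, 23 of 67 tested genes other than the members were lower in untreated HT1376 FOXP3 KO (34.3%) and 9 higher (13.4%). Over all genes tested the shares were 18.2% and 14.0%, and over the 11163 expressed genes 28.6% and 16.2%, which is nearer to these lists. In the DOCK, ELMO and Rac list, 6 of 18 relatives of DOCK10 were lower and 3 higher. DOCK4, an exchange factor for Rac, went from 189.7 to 2.73 CPM (log2 fold change -6.21, edgeR adjusted p = 5.71e-09), DOCK2 from 4.92 to 0.176 CPM and DOCK5 from 573.4 to 229.8 CPM. DOCK11, which like DOCK10 acts on CDC42, went the other way, from 0.511 to 4.40 CPM (log2 fold change 3.22, edgeR adjusted p = 0.00128).

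Among axon guidance genes, the list of ROBO4 and FLRT3, 5 of 16 were lower and 4 higher. FLRT2, the relative of FLRT3, went from 106.3 to 0.427 CPM, and the netrin receptor UNC5A from 43.2 to 0.959 CPM, while ROBO2 rose from 0.301 to 3.19 CPM and NRP2 from 0.0262 to 9.15 CPM. Of the cancer-testis genes, the list of PRAME and PRDM9, 9 of 22 were lower and 1 higher: TEX15 went from 53.8 to 2.35 CPM and MAGEA10 from 15.9 to 1.08 CPM, and MAGEC2 rose from 23.9 to 48.2 CPM. The LIM-homeodomain and LMO list, which holds LHX1, had 3 of 11 lower and 1 higher.

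The 4 lists without a member had 32 of 59 genes lower (54.2%) and 6 higher (10.2%), a share that the choice of lists also partly sets. The SHISA genes with Wnt and FGF receptors had 10 of 23 lower, counting SHISA2, whose own values made it a marker, and 5 higher. DKK1, a secreted Wnt antagonist, went from 31.8 to 0.163 CPM and FGFR1 from 3.99 to 0.0305 CPM, while FGFR2 rose from 61.4 to 128 CPM. The cornified envelope and kallikrein list, proteins and proteases of squamous differentiation, had 13 of 18 lower and none higher (median log2 fold change -4.83), with SPRR3 going from a mean of 606.8 to 16.4 CPM and KLK5 from 304.0 to 3.54 CPM. Of Toll-like receptors and their adaptors, 8 of 13 were lower and 1 higher, with TLR6 at 21.7 and 0.272 CPM, while TLR3 rose by a log2 fold change of 1.41 (edgeR adjusted p = 0.00290). Terminal complement had 1 of 5 lower and none higher, with C7 going from 8.72 to 0.212 CPM.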

How the data were processed

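RNA-seq libraries of HT1376 cells (12, in 4 groups of 3 taken from the sample labels) were made after depletion of ribosomal RNA. The authors removed Mycoplasma reads with Kraken, aligned to GRCh38 (Ensembl 103) with STAR (2.7.11a in the submitters' processing notes) and deposited raw htseq-count counts per gene. Strand setting and the handling of reads matching several genes are not given in the sources used here. No column was left out.

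CPM were counts divided by the column total. Contrasts were fitted with edgeR 4.0.16 (R 4.3.3; quasi-likelihood, TMM) on genes with at least 10 counts in the 6 libraries compared, and a Benjamini-Hochberg adjusted p under 0.05 was called. The SE of a log2 fold change was derived as its absolute value divided by the square root of edgeR's F statistic. The fits were tested on simulated counts with the same dispersion for all genes and no replicate effect. That simulation therefore cannot show how the replicate block behaves in these data. Positions come from GENCODE 44, on the same build, matched by identifier.

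The values of 1 member are not reported here. The members and the gene lists were chosen with earlier results of these data known. Genes named are DOCK10 and SHISA2, the 12 members with the highest median CPM in HT1376 CT, members called with IFNγ, members in the lists, adjacent members, those nearest the limits, and examples by role. Neighbours and relatives named as examples were chosen after their values were seen. Deviations from group means correlated at 0.139 to 0.152 for HT1376 CT libraries of the same number (3 pairs) and at -0.105 to -0.029 for different numbers. The numbers were therefore used as a block for IFNγ. Between lines the correlations were 0.0408 to 0.136 for the same number. The labels do not say whether libraries came from separate cultures, so p-values measure only the spread between these libraries, which may be technical. Alternatives were DESeq2 1.42.0, its size factors, no filter, bias-adjusted deviance, all 12 libraries in 1 fit, the replicate block, other limits, and leaving out each library.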

Additional observations from a re-analysis of the deposited data

How the results depend on the processing

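The members called with IFNγ in HT1376 CT depended on the design of the fit. Those that rose went from 5 to 10 with the replicate block, also with bias-adjusted deviance added (chosen after seeing the data), and were 3 to 6 with 1 library left out, with 3 without HT1376 CT replicate 11, HT1376 CT replicate 13 or HT1376 CT + IFNγ replicate 13. Those that fell went from 1 to 10 with the block and 9 with the block and bias-adjusted deviance, to 3 with DESeq2 and to 7 without the filter on low counts, and were 1 to 2 with 1 library left out, with 2 without HT1376 CT + IFNγ replicate 11 or 13. Neighbours called lower in HT1376 FOXP3 KO went from 51 of 98 to 84 of 194 when the nearest 2 genes on each side were taken, and were 39 to 46 with 1 library left out. Neighbours called higher went from 5 to 15 with the nearest 2 and to 3 without the filter, and were 3 to 6 with 1 library left out, with 3 without any 1 of the HT1376 CT replicates or HT1376 FOXP3 KO replicate 11. The cause of these shifts was not tested. Leaving out overlapping neighbours, also chosen after seeing the data, gave 38 lower and 5 higher. The replicate block changed no other count by more than 1.5 times. The rule itself gave 13 genes with a knockout limit of 0.1 CPM, 30 with a control limit of 5 CPM, 51 with TMM-adjusted library sizes and 50 to 59 when 1 library was ignored. In the shallowest knockout library, 3 counts correspond to 0.331 CPM, so a member there could be at 2 counts and meet the limit, and levels below this cannot be ranked.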
